A study of Rattus norvegicus with 12 samples.

Results

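Expression in the rat liver was followed over 3 diets ordered by their content of wakame, an edible brown seaweed. All 12 arrays of the series entered, and 3240 of the 31042 probe sets that are not the manufacturer's controls, namely those whose standard deviation (SD) over the arrays was above 0.01 on the deposited log2 scale. A probe set is a group of short probes on the array aimed at the same transcript. The animals were male Sprague Dawley rats, 9 weeks old, fed for 28 days on a purified AIN-93G control diet or on that diet with 0.1% (low) or 1% (high) wakame powder, and each diet had 4 rats with 1 array each. The labels name no transgene and no other agent. The design text gives 6 rats per diet and 3 rats per cage, which means that effects of diet and of cage cannot be told apart. The sources used here give neither the hour of tissue collection nor whether the rats had been fasted. Levels come from whole liver, where fewer cells of a type and less RNA per cell cannot be told apart.

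A graded response is one in which each further amount of a food component moves a transcript further, whereas a saturating response has reached its level at a small amount and a threshold response begins only at a large amount. Liver transcripts for lipid synthesis, bile acid synthesis and hormone signalling are known to follow feeding, insulin, growth hormone and the daily clock. Bcl6 encodes a repressor that opposes the growth hormone factor STAT5 in liver, Onecut1 (HNF6) is a hepatocyte transcription factor, and Nr1d1 (REV-ERBalpha) is a repressor of the clock whose own promoter is driven through E-boxes, the short element CACGTG.

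The diets were scored 0, 1 and 2. The trend is the change per diet step in log2 units, and the departure is the mean of the low arrays minus the midpoint of the control and high means. With 4 arrays a diet the trend is the high minus control difference divided by the number of steps, so its test is the test of those outer diets, and the low arrays add only to the estimate of the spread. What the low arrays say about dose order is carried by the departure and by the separate steps, the first being low minus control and the second high minus low. The words rose, fell and changed are used for an adjusted p under 0.05 in limma over the 3240 probe sets.

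The trend passed for 54 of 3240 probe sets (1.67%), 28 higher (0.864%) and 26 lower (0.802%) with more wakame, and 599 (18.5%) had an unadjusted p under 0.05. The departure passed for 0 probe sets (0%) in limma, with 174 (5.37%) at an unadjusted p under 0.05 and a lowest adjusted p of 0.411. The first step passed for 2 (0.0617%), both lower, and the second step for 0 (0%), with 371 (11.5%) and 219 (6.76%) at an unadjusted p under 0.05. The lowest adjusted p of the second step was 0.246. An F-test for any difference among the diets passed for 6 (0.185%), and every first-step and F call was among the 54. At the threshold lay Sh3bp5 and Hacl1 (adjusted p = 0.0491) and Lyst (0.0492) on the inside, and Ajuba (0.0511) and Slc49a4 (0.0551) on the outside. No probe set is therefore shown to bend over the diet scores 0, 1 and 2. These scores are an order and not the amounts of 0.1% and 1%, so a bend over the amount eaten was not tested by the departure. The shapes that follow describe means and not tested differences between shapes.

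By the sizes of their steps, 37 of the 54 (68.5%) were graded, meaning that both steps went the same way and the larger was at most 3 times the smaller. Another 12 (22.2%) were at a plateau by 0.1% wakame, with a first step over 3 times the second, and 5 (9.26%) moved at the high step only, with the second step over 3 times the first. No called probe set turned back or moved at the low dose only. Over all 3240 the shares were 25.7% graded, 23.5% plateau, 17.4% high step only, 12.8% low only and 20.5% turning. All 54 passed the test of the outer diets, which by itself selects against low-only and turning shapes. The absence of these shapes among the calls and the larger graded share are therefore descriptions and not results about dose. The low mean lay between the outer means in 52 of the 54, compared with 45.2% of all varying probe sets. A wide gap between the outer diets leaves more room for a low mean inside it, so that share is a description. Control and low arrays did not overlap in 35 of the 54 (5.86% of all varying probe sets), and low and high arrays in 14 (3.77%). The control and high arrays of these counts also chose the 54, so the counts are descriptions as well. The low mean was nearer to high in 36 and nearer to control in 18. The same count over all varying probe sets was not made, so this one is a description too.

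**Figure D1:**
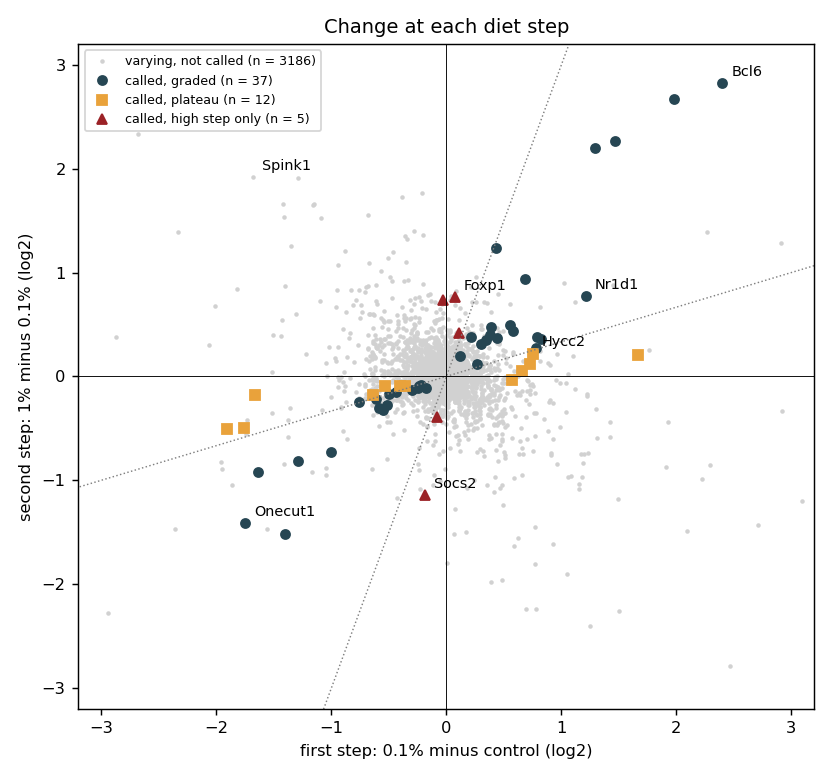
Change from control to 0.1% wakame (x axis, log2) against change from 0.1% to 1% wakame (y axis, log2) for the 3240 varying probe sets, with 1 point beyond the axes. The 37 graded called probe sets lie between the dotted lines, where 1 step is 3 times the other, the 12 plateau ones near the x axis and the 5 high-step ones near the y axis, and the uncalled Spink1 has a negative first and a positive second step.

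A promoter stretch is shown for Bcl6, the largest graded rise, and for Hycc2, the named plateau gene with the smallest p, because both hold the element CACGTG, printed in capitals. Each runs 5′ to 3′ on the gene's strand from 250 bases before to 50 bases after the RefSeq start in assembly GRCr8.
Bcl6, chr11:90358503-90358802, plus strand: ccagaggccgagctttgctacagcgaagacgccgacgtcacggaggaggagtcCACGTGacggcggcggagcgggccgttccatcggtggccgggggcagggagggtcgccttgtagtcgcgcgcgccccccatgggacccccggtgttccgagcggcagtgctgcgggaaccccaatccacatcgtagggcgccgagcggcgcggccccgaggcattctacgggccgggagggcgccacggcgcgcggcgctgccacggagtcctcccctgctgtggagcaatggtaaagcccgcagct
Hycc2, chr9:67623248-67623547, minus strand: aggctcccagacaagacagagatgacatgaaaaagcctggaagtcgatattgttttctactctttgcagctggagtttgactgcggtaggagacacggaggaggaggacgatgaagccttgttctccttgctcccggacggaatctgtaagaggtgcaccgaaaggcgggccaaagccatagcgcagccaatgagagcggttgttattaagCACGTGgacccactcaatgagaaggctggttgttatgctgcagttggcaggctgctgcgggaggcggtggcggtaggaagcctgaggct
The first base of the element lies at −197 in Bcl6 and at −39 in Hycc2, counted from the start. Of the 34 genes named by the 54 probe sets, 31 had a promoter in the table, and 3 of these (Bcl6, Hycc2 and Hacd3) held CACGTG on either strand, compared with 6.42% of all 33469 promoters of the same length. The Nr1d1 promoter in the table held no CACGTG in this window. The D-box TTATGTAA was in 1 (Birc2; 0.893% of all), the STAT element TTCNNNGAA in 2 (Cystm1 and Psmc6; 8.87%) and the sterol element TCACNCCAC in 0 (1.12%). The motifs do not overlap one another in these promoters, and a match is a description of letters and not of binding.

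Among transcription factors, Bcl6 (probe set 1379368_at) had the largest graded rise. Its log2 levels were 6.34, 6.72, 5.57 and 6.26 on control arrays 1 to 4, then 7.11, 7.06, 10.18 and 10.13 on the low arrays, and 10.22, 12.02, 12.12 and 11.38 on the high arrays. All arrays stood in dose order without overlap. The mean was higher by 2.40 in the first step and 2.82 in the second (SE 0.77 for each). Neither step passed by itself (adjusted p = 0.24 and 0.514 by limma). The trend was 2.61 ± 0.38 per step (SE, n = 4 a diet, adjusted p = 0.0152 by limma), with a departure of −0.21 (95% interval −1.68 to 1.26). The low mean of 8.62 was the level of no single rat: low 1 and low 2 lay just above the highest control, and low 3 and low 4 just below the lowest high array. As a share of the distance from the control mean to the high mean, the 4 low rats stood at 17.0%, 16.1%, 75.9% and 74.9%. An intermediate mean in this gene is thus a mean of rats near either end.

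A further 3 probe sets without a gene name had a related but not identical spread of low rats, with low 1 and low 2 near control, low 3 among the high arrays and low 4 midway (58.6%, 57.5% and 47.7% of the way). In 1380306_at the low arrays read 6.12, 6.49, 10.14 and 8.58, with control at 5.46 to 6.23 and high at 8.78 to 11.36. In 1392613_at they read 5.53, 5.71, 8.83 and 7.59, with control at 5.00 to 5.88 and high at 7.78 to 9.96. In 1397225_at they read 5.83, 6.22, 8.60 and 7.39, with control at 5.48 to 5.96 and high at 7.83 to 10.04. Low rats 1 and 2 were at or just above the control range in each, and low rat 3 was inside the high range. Their trends were 2.32 ± 0.42, 1.87 ± 0.36 and 1.74 ± 0.31 log2 per step (SE; limma adjusted p = 0.0329, 0.0389 and 0.0309).

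Onecut1 fell with more wakame on both of its varying probe sets. On 1371034_at the control arrays read 10.97, 11.07, 10.91 and 12.23, the low arrays 9.82, 10.53, 8.63 and 9.18, and the high arrays 9.48, 7.66, 7.23 and 8.15. No low array reached the control range, while low 3 and low 4 lay inside the high range. The trend was −1.58 ± 0.27 per step (adjusted p = 0.0268 by limma) with steps of −1.75 and −1.41, and on 1387760_a_at it was −1.05 ± 0.17 (adjusted p = 0.0262) with steps of −1.29 and −0.81. Low rats 3 and 4, which had the higher Bcl6, had the lower Onecut1 on both probe sets.

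Nr1d1 read 6.35, 6.48, 6.91 and 6.31 in control, 7.28, 7.24, 7.78 and 8.60 in low and 8.47, 9.21, 8.04 and 8.26 in high. The low arrays all lay above control, and only low 4 lay among the high arrays. The trend was 0.99 ± 0.16 per step (adjusted p = 0.0262 by limma) with steps of 1.21 and 0.77. Nr5a2 (LRH-1), a nuclear receptor of bile acid and sterol genes, rose by 0.30 ± 0.063 per step on 1390965_at (adjusted p = 0.0486). Its low rats stood at −8.64%, 10.9%, 67.5% and 73.9% of the way, and its other varying probe set had a trend of 0.033 with an adjusted p of 0.662. Jade1, a chromatin and ubiquitin-ligase adaptor, rose by 0.59 ± 0.12 per step on 1374636_at (adjusted p = 0.0486), and on 1384759_at its trend was 0.091 (adjusted p = 0.276). Smad1, which carries BMP signals and induces hepcidin, fell by 0.15 log2 per step (trend −0.15 ± 0.028, adjusted p = 0.0375), and Fzd1, a Wnt receptor, had a trend of −0.44 ± 0.082 (adjusted p = 0.0361).

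Some genes that join actin to membranes and cell junctions had low rats in the middle. Ablim3, an actin-binding LIM protein, read 6.04, 6.11, 6.26 and 6.54 in control, 6.57, 6.89, 6.79 and 6.91 in low and 7.22, 7.66, 7.04 and 7.23 in high. Baiap2 (IRSp53), which bends membranes at actin protrusions, read 6.86, 6.81, 7.00 and 6.49, then 7.10, 7.03, 7.24 and 7.36, then 7.71, 8.00, 7.46 and 7.47. The diets did not overlap in either gene, and each low rat of both stood between 27.6% and 65.3% of the way. The trends were 0.52 ± 0.075 and 0.43 ± 0.073 per step (adjusted p = 0.0139 and 0.0268 by limma), with departures of 0.03 (95% interval −0.26 to 0.32) and −0.043 (−0.32 to 0.24). Cgnl1 (paracingulin), of tight and adherens junctions, moved less, from 9.50 to 9.61 in control through 9.61 to 9.74 in low to 9.80 to 9.95 in high, with a trend of 0.16 ± 0.029 (adjusted p = 0.0319). Its highest control and lowest low array both round to 9.61.

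Complete dose order, with every low array between all control and all high arrays, held for 6 of 3240 probe sets (0.185%), all 6 called. They were Bcl6, Baiap2, Ablim3, Cgnl1 and the unnamed 1374060_at, which rose, and 1391407_at, which fell. In 1374060_at the low arrays read 9.28, 9.38, 9.44 and 9.50, between a highest control of 9.15 and a lowest high array of 9.54, and the departure was −0.0054 (95% interval −0.2 to 0.19). In 1391407_at the control arrays read 9.38, 8.66, 9.33 and 9.10, the low 8.07, 7.45, 6.88 and 7.52 and the high 6.37, 6.76, 6.59 and 6.54. That probe set had the smallest p of the trend (−1.28 ± 0.12 per step, adjusted p = 0.00138 by limma) and was 1 of the 2 that fell in the first step (−1.64 ± 0.23, adjusted p = 0.044).

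**Figure D2:**
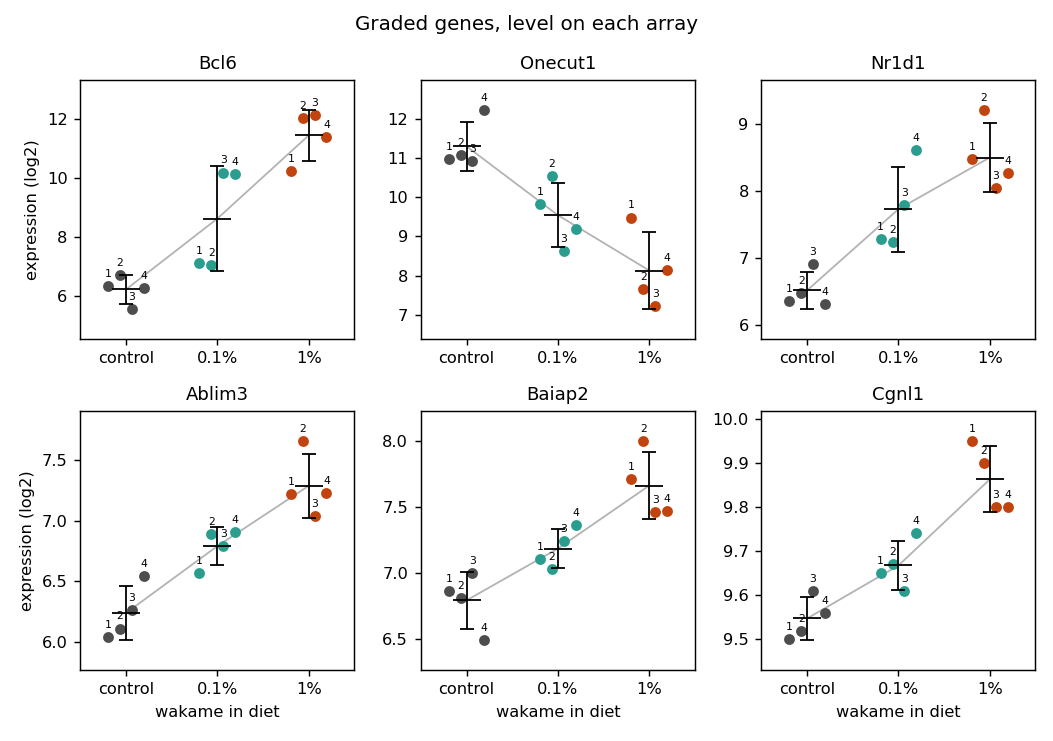
Log2 level (y axis) on each array by diet (x axis) for 6 graded genes, with numbers marking the arrays and bars the mean and SD of 4. In Bcl6 low rats 1 and 2 sit at 7.11 and 7.06 and low rats 3 and 4 at 10.18 and 10.13, whereas in Ablim3 and Baiap2 all 4 low rats lie in the middle.

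The other graded genes ranged widely in function. Those that rose were Hacl1, a peroxisomal lyase for branched-chain and hydroxy fatty acids (0.81 ± 0.17 per step), Sh3bp5 (0.59 ± 0.13), Pald1 (0.51 ± 0.11) and Shld2, a DNA repair factor (0.34 ± 0.072). In Hacl1 the low rats read 9.78, 9.65, 8.97 and 10.80, from below the highest control to inside the high range, so its middle mean of 9.80 came from rats spread over most of the span. Those that fell included Rsrp1 (−0.86 ± 0.14), Cisd2, an iron-sulfur protein of the endoplasmic reticulum (−0.51 ± 0.095), Cystm1 (−0.44 ± 0.079), the apoptosis inhibitor Birc2 (−0.41 ± 0.071), the very-long-chain fatty acid dehydratase Hacd3 (−0.33 ± 0.069) and the chaperone Hsp90ab1 (−0.29 ± 0.06). The mitotic cyclin Ccnb1 fell by 0.22 log2 per step (trend −0.22 ± 0.044), and Lyst, Tpm1 and Psmc6 had trends of −0.18, −0.16 and −0.15. Limma adjusted p-values of these genes lay between 0.0237 and 0.0492. Most of the fall lay in the first step in Cisd2 (−0.76 and −0.25), Birc2 (−0.61 and −0.22) and Hsp90ab1 (−0.44 and −0.15) on the called probe sets. On 1373919_at Cisd2 had a trend of −0.072 (adjusted p = 0.266 by limma), and on the brighter 1375336_at Hsp90ab1 had steps of −0.42 and 0.064 (adjusted p = 0.256). In all, 10 called genes had 11 further varying probe sets, of which 0 passed, 10 had a trend of the same sign and 1 (Tpm1, 0.013) the opposite sign.

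The plateau genes had covered most of their distance at 0.1% wakame. Hycc2, a subunit of the complex that brings phosphatidylinositol 4-kinase to the plasma membrane, read 8.78, 8.56, 8.67 and 8.61 in control, 9.29, 9.29, 9.55 and 9.48 in low and 9.95, 9.45, 9.39 and 9.69 in high. Every rat on wakame lay above every control, and the low and high arrays overlapped. The first step was 0.75 ± 0.12 (adjusted p = 0.0778 by limma, not passed), the second 0.22 ± 0.12, and the trend 0.48 ± 0.061 (adjusted p = 0.0096). Asap2, an Arf GTPase-activating protein of the cell edge, read 8.81, 8.95, 8.81 and 8.85, then 8.46, 8.44, 8.62 and 8.48, then 8.33, 8.45, 8.47 and 8.38. It fell with a trend of −0.22 ± 0.031 (adjusted p = 0.0106) and steps of −0.36 ± 0.062 and −0.093 ± 0.062.

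Aopep, an aminopeptidase, was the called gene whose low mean went beyond the high mean. It read 7.42, 7.55, 7.59 and 7.36 in control, 7.95, 8.18, 7.96 and 8.10 in low and 7.71, 8.18, 8.10 and 8.05 in high. Its steps were 0.57 ± 0.11 and −0.036 ± 0.11, and its departure of 0.30 (95% interval 0.096 to 0.51) had an adjusted p of 0.687. Baiap2l1, a relative of Baiap2, took the same first-step course, with steps of 0.66 ± 0.14 and 0.051 ± 0.14 and low arrays at 8.32 to 8.87 against 7.74 to 8.03 in control. Pank3, a pantothenate kinase of coenzyme A synthesis, had steps of −0.53 and −0.096 on 1394706_at, but −0.11 and 0.091 on the brighter 1374987_at (trend −0.012, adjusted p = 0.929 by limma). The zinc finger gene Zfp68 had steps of −0.40 and −0.091. The unnamed 1391718_at read 8.92, 8.42, 8.97 and 8.43, then 7.34, 7.16, 6.35 and 6.86, then 6.81, 6.24, 6.31 and 6.34. It was the other probe set that fell in the first step (−1.76 ± 0.23, adjusted p = 0.0363 by limma), and its second step was −0.50 ± 0.23 (adjusted p = 0.736). Of the 12 plateau probe sets 5 rose and 7 fell.

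Movement at the high step only was seen in 5 called probe sets. Socs2, a suppressor of growth hormone signalling that STAT5 induces, read 8.42, 7.89, 8.28 and 8.76 in control, 8.21, 8.82, 7.95 and 7.62 in low and 7.44, 6.92, 7.04 and 6.64 in high. The control and low arrays overlapped and the high arrays lay below all of them. Its steps were −0.19 ± 0.27 and −1.14 ± 0.27, with a trend of −0.66 ± 0.13 (adjusted p = 0.0472 by limma). Foxp1, a forkhead repressor, read 7.84, 7.66, 7.95 and 7.95, then 7.71, 7.50, 8.27 and 8.21, then 8.61, 8.85, 8.41 and 8.88 on 1390885_at, with steps of 0.071 ± 0.18 and 0.76 ± 0.18. Its low rats 1 and 2 were in or below the control range and low rats 3 and 4 above it. The other varying Foxp1 probe sets also moved at the high step only by their means, with trends of 0.35 and 0.22 that did not pass (adjusted p = 0.0826 and 0.102).

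Masp1, a serine protease of the lectin pathway of complement, read 9.22, 9.43, 9.26 and 9.17, then 9.31, 9.12, 9.61 and 9.48, then 9.90, 9.82, 9.76 and 9.73. Its steps were 0.11 ± 0.1 and 0.42 ± 0.1 and its trend 0.27 ± 0.051 (adjusted p = 0.0375 by limma). Krcc1 had steps of −0.082 ± 0.09 and −0.39 ± 0.09. The unnamed 1375331_at had low arrays of 5.98, 5.90, 6.09 and 5.93, inside the control range of 5.79 to 6.11, and high arrays of 7.16, 6.49, 6.56 and 6.65. Each of its low rats was within the control range, which held for no other called probe set.

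**Figure D3:**
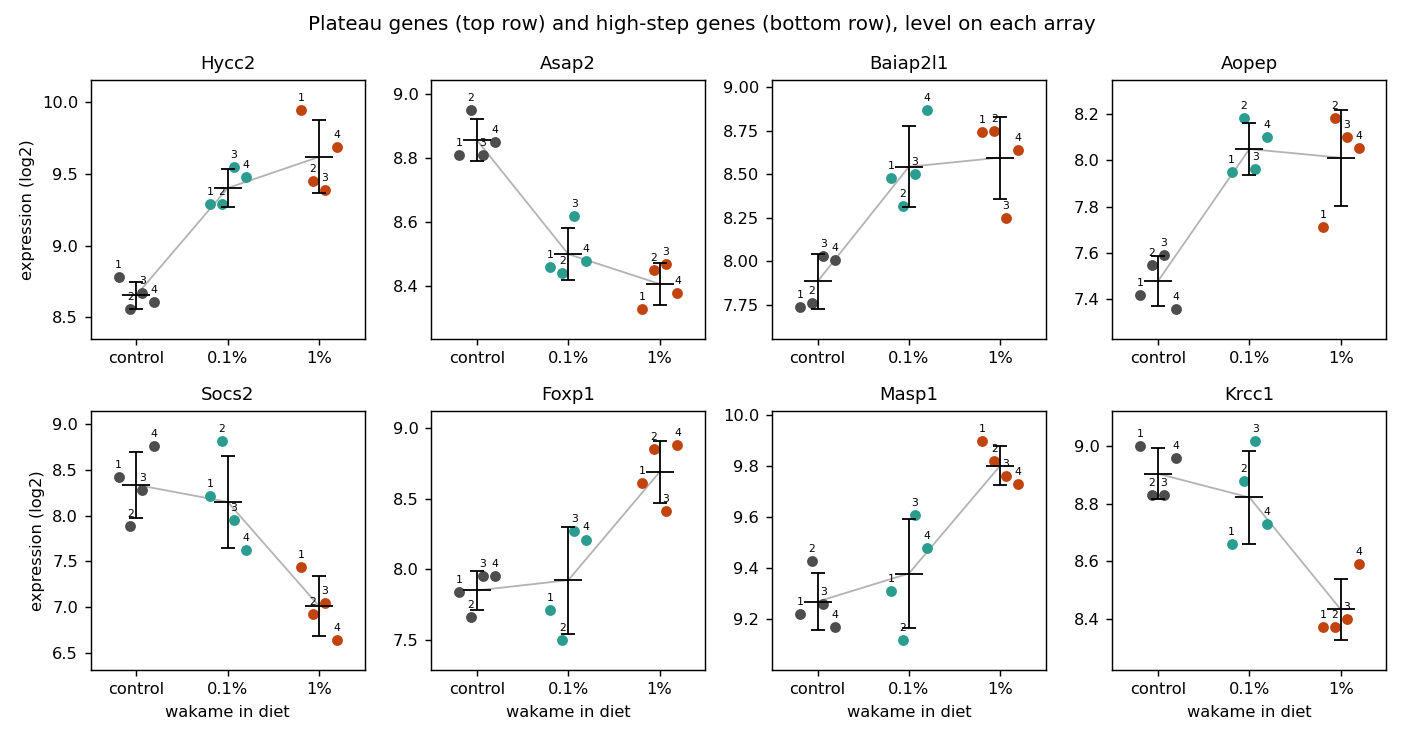
Log2 level (y axis) on each array by diet (x axis) for 4 plateau genes (top row) and 4 high-step genes (bottom row), with numbers marking the arrays and bars the mean and SD of 4. The low rats of Hycc2, at 9.29 to 9.55, are clear of control at 8.56 to 8.78, and those of Socs2, at 7.62 to 8.82, overlap control at 7.89 to 8.76.

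The median place along the dose axis differed between the 4 low rats. Over the 54 called probe sets the median position, with the control mean at 0 and the high mean at 100%, was 49.6% for low 1, 44.8% for low 2, 76.0% for low 3 and 71.9% for low 4. Control arrays had medians of −7.66% to 7.63% and high arrays of 86.1% to 113%. The control and high arrays set the scale and chose the 54, so their medians lie near its ends in advance and are no yardstick. The middle 50% of probe sets ran from 31.9% to 75.7% in low 1 and from 17% to 71.7% in low 2. It ran from 53% to 90.4% in low 3 and from 58.7% to 88.6% in low 4, so these ranges overlapped. The difference between the low rats was not tested. In the 37 graded probe sets the low medians were 42.7%, 39.1%, 69.4% and 68.7%. In the 5 high-step probe sets they were 7.95%, −27.4%, 29.0% and 39.5%.

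Of the 148 low-array values in graded probe sets, 84 lay in the middle from 25% to 75%, 21 lay under 25% and 43 over 75%. All 4 low rats were in the middle for 3 of the 37, namely Ablim3, Baiap2 and 1374060_at. The widest gap between neighbouring low rats was over 50% of the control-to-high distance in 5 of the 37 (Hacl1, Bcl6, Nr5a2, Jade1 and 1392613_at). In plateau probe sets 34 of 48 low values were over 75% and none was under 25%. These limits were chosen after the values were seen. By definition the low mean lies from 25% to 75% in graded and over 75% in plateau probe sets, so these counts partly restate the shapes. The values also come from the same 4 low rats and are not separate observations.

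The low arrays had the largest SD of the 3 diets in 25 of the 54 called probe sets, the high arrays in 19 and the control arrays in 10. For the low arrays this held in 35.2% of all 3240. By size the spread of the low arrays did not stand out. Over the 54 the median SD was largest for the high diet (0.25), followed by low (0.22) and control (0.21). Over all varying probe sets the medians were close together (low 0.19, the other diets 0.18 each). The first principal component of the varying probe sets placed the low arrays at −2.95, −7.91, 2.59 and 16.31, with control at −19.45 to −6.02 and high at 6.58 to 18.11. The 3-prime minus 5-prime difference of Gapdh, a sign of RNA integrity, was 1.20, 1.07, 0.96 and 1.10 log2 on the low arrays, 1.04 to 1.07 in control and 1.04 to 1.42 in high. The same difference of Actb was 2.24, 2.07, 2.43 and 2.28 on the low arrays, 2.21 to 2.49 in control and 2.28 to 2.43 in high. With the Gapdh difference as a covariate 4 trends passed (1391407_at, 1391718_at, 1377516_at and Hycc2), and Bcl6 kept a trend of 2.78 ± 0.48 with an adjusted p of 0.0935 by limma. The part of RNA integrity in the low rats' positions was not tested.

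Leaving out 1 array at a time moved the number of trends that passed between 7 (without high 2) and 49 (without low 4), with 8 without control 2, 9 without control 4, 11 without high 4, 13 without control 1 and 28 to 45 without the others. In all 12 such fits the trends of Hycc2, Asap2, 1391407_at, 1391718_at, 1374060_at and 1377516_at passed. Ablim3 passed in 11, missing without control 2 (adjusted p = 0.0564 by limma), and Bcl6 in 10, missing without control 4 and without high 2 (highest adjusted p 0.0761). Baiap2 passed in 8, Onecut1 and Nr1d1 in 7 and Cgnl1 in 6. Krcc1 passed in 4, Socs2, Foxp1, Masp1 and Baiap2l1 in 3, Aopep in 2 and Psmc6 in 0, with highest adjusted p-values of 0.126 for Krcc1, 0.136 for Socs2 and Aopep, 0.15 for Foxp1, 0.123 for Masp1 and 0.142 for Baiap2l1. The shape stayed the same in all 12 fits for 27 of the 54, of which 20 were graded, 6 plateau and 1 high step only.

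**Figure D4:**
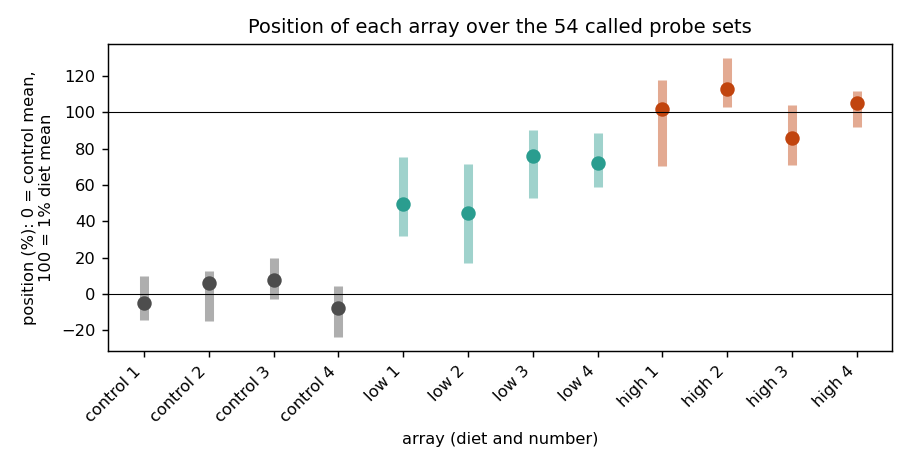
Position of each of the 12 arrays (x axis) between the control mean (0%) and the high mean (100%) over the 54 called probe sets, with points for medians and bars for the middle 50% of probe sets. Low 1 and low 2 lie at 49.6% and 44.8%, low 3 and low 4 at 76.0% and 71.9%.

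Movement at the low dose alone was searched for with the departure, where 0 probe sets passed, so the values here are descriptions. Each low array lay outside both other diets, on the same side, in 10 of 3240 probe sets (0.309%). Spink1, a secreted trypsin inhibitor, had the smallest departure p. On 1387193_a_at it read 8.15, 8.74, 7.97 and 7.58 in control, 7.18, 5.97, 6.10 and 6.46 in low and 8.84, 7.59, 8.76 and 8.19 in high, a departure of −1.80 ± 0.31 (adjusted p = 0.411 by limma). Probe set 1368447_x_at gave a departure of −1.54 (95% interval −2.23 to −0.85), while the remaining one, 1368446_at, gave −0.35 (−1.26 to 0.57) with low arrays from 7.08 to 9.68. The departures of these probe sets had the same sign, with a smaller and less certain one on 1368446_at. The difference between the probe sets was not tested.

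The clock gene Per1 was high in the low diet, at 7.73, 7.69, 7.62 and 8.14 against 7.16 to 7.40 in control and 7.15 to 7.60 in high (departure 0.43 ± 0.12, adjusted p = 0.67 by limma). Etl4 read 7.72 to 7.84 in low, 8.00 to 8.27 in control and 7.86 to 8.15 in high. Irf2bp2, a transcriptional corepressor, had the same sign on both varying probe sets, with departures of 0.45 and 0.77. Ogn, an extracellular matrix proteoglycan, had departures of −0.55 and 0.18, opposite in sign.

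Single genes of other pathways, named by the size of their departure p or from the lists, are given as values that did not pass. Cyp7a1, the rate-limiting enzyme of bile acid synthesis, read 8.74, 8.00, 9.04 and 8.43 in low, 6.00 to 7.57 in control and 5.76 to 8.55 in high, a departure of 1.33 ± 0.48. Igfbp1, which insulin represses, read 10.99, 10.49, 10.03 and 11.51 in low, 6.45 to 9.71 in control and 8.41 to 10.76 in high, a departure of 2.07 ± 0.60. Lpin1, a phosphatidate phosphatase induced in fasting, had departures of 1.57 ± 0.56 and 1.39 on its 2 varying probe sets, and Tat, tyrosine aminotransferase, 1.29 ± 0.42. Nqo1, a quinone reductase and NRF2 target, read 8.00 to 8.10 in low, 9.30 to 10.63 in control and 7.51 to 9.53 in high, a departure of −1.33 ± 0.37. Adjusted p-values of these departures were 0.67 to 0.77.

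**Figure D5:**
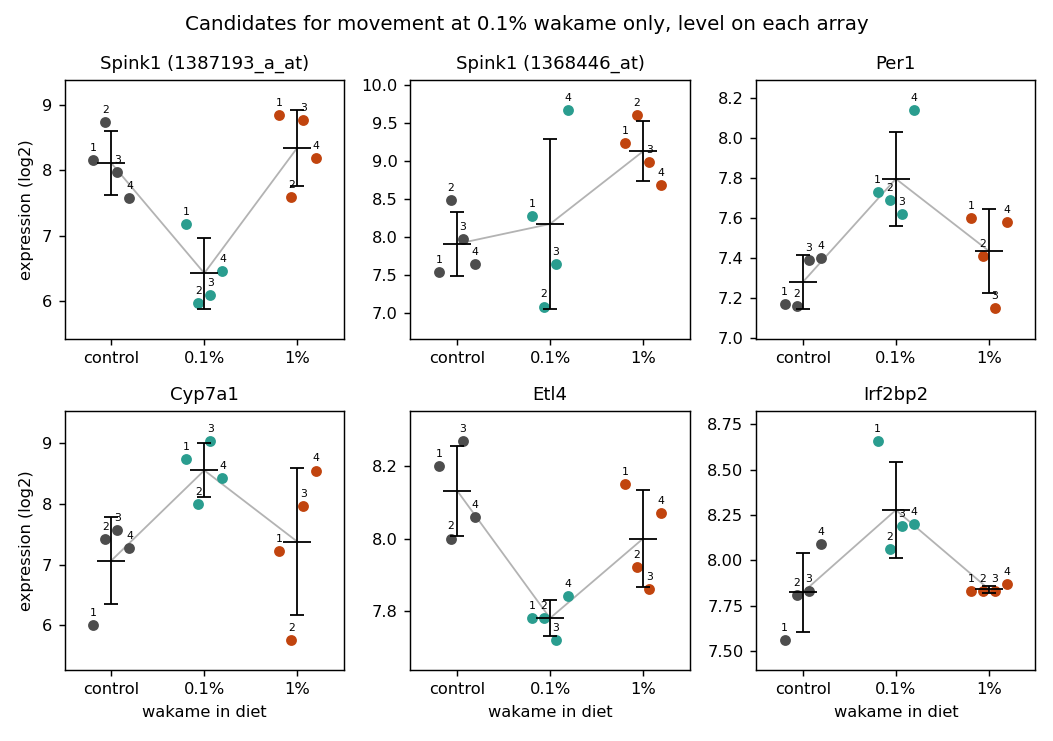
Log2 level (y axis) on each array by diet (x axis) for 2 probe sets of Spink1 and for Per1, Cyp7a1, Etl4 and Irf2bp2, with numbers marking the arrays and bars the mean and SD of 4. On 1387193_a_at Spink1 is 5.97 to 7.18 in low and at least 7.58 elsewhere, whereas on 1368446_at the low arrays spread from 7.08 to 9.68.

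Pathway lists are described by their counts and medians, with 1 probe set per gene. The lists and their members were chosen with earlier results of these data known. Their counts, such as those of the actin and growth hormone lists, are therefore descriptions and no independent evidence. Over all 2301 varying genes 27 trends passed, 54.8% of trends were negative, the median steps were −0.013 and −0.0033 log2, and 45.2% of low means lay between the outer means. An unadjusted trend p under 0.05 was found in 17.8% of these genes. By their means 595 of the 2301 were graded, 563 were at a plateau and 397 moved at the high step only. Of 9 varying genes in a list of actin and junction linkers, 4 rose (Ablim3, Baiap2, Cgnl1 and Baiap2l1) and 6 were graded. The claudins Cldn1 (steps of 0.26 and 0.72) and Cldn2 (−0.26 and −0.38) did not pass. Of 11 varying growth hormone genes 3 passed, Bcl6 upward and Onecut1 and Socs2 downward, with 46.0%, 55.4% and 14.3% of the distance from control to high covered at 0.1% wakame. Igf1 had steps of −0.071 and −0.033, and Cyp2c12, a female-predominant P450, 0.39 and −1.98, with trends that did not pass (adjusted p = 0.373 and 0.348).

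Of 15 varying clock genes 1 passed, Nr1d1. Dbp (steps of 0.49 and 0.44) and Tef (0.31 and 0.32), output factors that bind the D-box, were graded by their means, Nr1d2 was at a plateau (0.90 and 0.11) and Cry1, a repressor, had steps of −0.39 and −0.25. None of these trends passed, with adjusted p-values of 0.07 to 0.188. In Dbp the low arrays read 5.87, 6.22, 6.37 and 7.79, with control at 5.96 to 6.26 and high at 6.81 to 7.28, so low 4 was the 1 low array above the lowest high array and low 1 to 3 lay in or near the control range.

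Fatty acid synthesis genes were lower with more wakame in all 13 that varied, and 0 passed in limma, with 6 at an unadjusted p under 0.05 (17.8% of all varying genes). The median first step was −0.52 and the median second step −0.096. By shape 7 were at a plateau and 4 graded, against 563 and 595 of all 2301 varying genes. Elovl6, the elongase of palmitate, had steps of −1.41 and −0.84 (adjusted p = 0.0605), Fasn, fatty acid synthase, −1.74 and −0.55, and Mid1ip1, which assembles acetyl-CoA carboxylase, −1.44 and 0.39. The 12 varying genes of the mevalonate and sterol pathway were all lower as well, with 0 passing, 3 at an unadjusted p under 0.05, and medians of −0.37 and −0.16. Of these 9 were graded, such as Idi1 (−0.38 and −0.35) and Lss (−0.27 and −0.23), against 595 of all 2301 varying genes. The mean level of the 12 was 9.51, 9.75, 9.78 and 8.66 on low arrays 1 to 4, 9.61 to 9.98 in control and 8.93 to 9.55 in high. Low 2 and low 3 thus lay in the control range and low 4 below every high array, so the middle mean rests largely on low 4. The difference in course between the lists was not tested.

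Metallothionein probe sets were graded by their means, Mt2A with steps of 2.27 and 1.39 and Mt1 with 0.19 and 0.27, and neither passed (adjusted p = 0.095 and 0.0622). The transferrin receptor Tfrc moved at the high step by its means, −0.012 and −0.89 on its brighter varying probe set (adjusted p = 0.191). On 1371113_a_at its steps were −0.17 and −0.62, with a trend of −0.39 ± 0.094 that did not pass either (adjusted p = 0.0659 by limma). Of 11 varying mitotic genes 10 were lower and 1 fell, Ccnb1, while 27 of all 2301 varying genes passed in either direction. An unadjusted p under 0.05 was found in 7 of the 11 (17.8% of all varying genes). By shape 6 were at a plateau, such as Cdk1 (−0.87 and −0.25) and Ccna2 (−0.65 and −0.12), against 563 of all 2301. The mean level of the 11 was 7.75, 7.82, 7.40 and 7.42 on control arrays 1 to 4, 7.11 to 7.27 in low and 7.02 to 7.30 in high. Ribosomal protein genes were lower in 10 of 10, with 0 passing and 5 at an unadjusted p under 0.05 (17.8% of all varying genes). Their steps were small (medians −0.03 and −0.1), and 6 were of high-step shape, against 397 of all 2301 varying genes. In glycolysis and glycogen genes, 11 of 13 were lower with 0 passing, and the low mean went beyond the high mean in 7, against 29.9% of all varying genes.

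Markers of liver cell types did not pass in any list. Among 5 varying hepatocyte markers 0 passed, and their mean level was 11.33 to 11.64 in control, 11.51 to 11.82 in low and 11.11 to 11.55 in high. Varying macrophage markers (5), stellate cell and fibroblast markers (5), endothelial markers (2), lymphocyte markers (1) and erythrocyte markers (3) gave 0 calls, with 1 stellate gene at an unadjusted p under 0.05. The mean level of the macrophage markers ran from 8.58 to 9.17 in control, 8.68 to 9.20 in low and 8.66 to 9.12 in high, and the stellate ones from 8.21 to 8.58, 8.03 to 8.63 and 8.24 to 8.81. None of 5 measured cholangiocyte markers varied.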

How the data were processed

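Liver RNA of 12 rats was measured on an Affymetrix rat array, with biotin-labelled cRNA made from 100 ng of total RNA by a 3-prime kit, per the labels' protocols. The authors deposited 1 table of log2 values for 31099 probe sets, of which 57 are the manufacturer's controls. That these are log2 values was inferred from their range (3.15 to 14.6). The submitters' processing notes list R 2.7.2. The sources used here do not say how background, normalization and summarisation were handled. Of the other 31042 probe sets 89.6% had an SD of at most 0.01 over the arrays, and a flat value does not show that RNA levels did not differ. Every array had a median of 6.59, and arrays of the same diet correlated at 0.911 to 0.961 over the varying probe sets. No detection call stands behind a value, and precision is limited by having 4 arrays a diet.

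A mean per diet was fitted to the 3240 varying probe sets with limma 3.58.1 in R 4.3.3 (moderated variance with a mean trend, Benjamini-Hochberg adjustment, threshold 0.05), after the code was tested on simulated data. Trend, departure, both steps and an F-test were taken from the same fit. Values ± are standard errors of that fit. Shapes used a step ratio of 3. Which rats shared a cage is not given. Symbols are those of the array's annotation and may be outdated: of the 54 called probe sets 35 had 1 symbol (34 genes), 1 had several and 18 had none. Named genes were up to 12 rises and 12 falls of the trend, up to 10 of each other comparison, those in complete order, up to 2 per gene list by F-test p, and 19 genes fixed by name. The 28 gene lists used the brightest varying probe set per gene. Members and lists were chosen with earlier results of these data known. Promoters came from RefSeq (GRCr8). Alternatives were a replicate block, other SD limits, 1 probe set per gene, quantile normalization, a Gapdh covariate, array weights, other dose scores, other step ratios and each array left out. Replicate numbers did not pair the samples: same-numbered arrays correlated at −0.12 to 0.092 in their deviations, with 0 of 12 pairs above 0.1.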

Additional observations from a re-analysis of the deposited data

Results flagged for a closer look

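In 26 of 351 groups of 4 arrays (117 probe sets) 1 array lay apart from the other 3 by Dixon's criterion, which chance gives in about 1 group in 20. In control, array 4 was high in both Onecut1 probe sets (12.23 against at most 11.07, and 9.46 against at most 8.62), array 1 was low in Il6st (8.49) and high in Gclc (8.96), array 3 low in Pnpla3 (7.53), and array 2 low in Tpm1 (7.09). In the low diet, array 2 was high in Zfp68 (7.35), Pank3 (7.18) and Ccna2 (6.28). Array 3 was high in Psmc6 (7.81) and Fchsd2 (9.05) and low in Mt1 (6.55), array 4 was low in Elovl6 (6.89) and Gpam (6.25) and high in Il6st (9.14), and array 1 was low in 1377516_at (6.14). In the high diet, array 1 was high in Birc2 (8.71), Pank3 (7.12), 1398397_at (9.61) and 1385355_at (7.61), and low in Nqo1 (7.51). Array 3 was high in Hacd3 (7.95) and low in Sh3bp5 (10.09), and array 4 was high in Krcc1 (8.59) and Irf2bp2 (7.87) and low in Ccna2 (5.53). The split of the low rats in Bcl6 is not among these, because 2 arrays lie on each side.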

How the results depend on the processing

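The number of trend calls depended strongly on the setting. It was 12 with a replicate block, 10 with 1 probe set per gene, 9 with no SD limit (6 of them flat probe sets), 4 with the Gapdh covariate and 1 with the linear term alone scored by percent of wakame. It stayed within 1.5 times of 54 with an SD limit of 0.1 (41), quantile normalization (48), array weights (46), probe sets above the array median (50), no variance trend (56) and the linear term alone scored 0, 1, 2 (45). Under the block 10 of the 12 calls were among the 54, and 1 F-test call and 0 first-step calls remained. The F-test gave 13 at an SD limit of 0.1, 12 without the limit (9 flat), 0 with 1 probe set per gene and 2 with the covariate. The first step gave 5 without the limit (5 flat), 0 with 1 probe set per gene, and 1 each with quantile normalization and array weights. Without the limit the departure gave 8 and the second step 6, all flat. With a step ratio of 2, 24 were graded and 24 plateau, and with 5, 6 were plateau and 3 high step only. Leaving out 1 array gave 7 to 49 trend, 0 to 1 departure, 2 to 19 F-test, 0 to 8 first-step and 0 to 1 second-step calls, and the 1 departure, without low 1, was 1397977_at. Signs turned in uncalled markers: leaving out 1 array, the trend of Csf1r ran from −0.0072 to 0.11, the departure of Lyve1 from −0.013 to 0.088 and the trend of Ptprc from −0.069 to 0.054, and Ptprc was at 0.0043 with the covariate. The causes of these changes were not tested. Dose order rests on 4 low rats.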

Other observations

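Scoring the diets by their percent of wakame, which places the low diet close to control, left 1 of the 54 trends past the threshold. It was the unnamed probe set 1377516_at, at 1.55 log2 per percent (adjusted p = 0.0286 by limma). Its arrays read 6.34, 6.52, 6.44 and 5.71 in control, 6.14, 6.85, 6.90 and 6.82 in low, and 8.23, 7.66, 7.78 and 8.00 in high, so that the high arrays stood alone and the low mean was 25.7% of the way. Scoring by order, with the linear term alone, left 45.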
